A study of Vitis labrusca x Vitis vinifera with 9 samples.

Results

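Genes that set the supply of active cytokinin and the flow of auxin were described in dormant grapevine buds forced to sprout in summer: adenylate isopentenyltransferase 3 (IPT3, GSVIVT00023692001), cytokinin oxidase CKX3 (GSVIVT00033806001) and an auxin efflux carrier component 2, the grapevine homolog of Arabidopsis PIN2 (GSVIVT00031315001). They were taken by gene identifier, and all 3 of the 3 were found and tested among the 30128 genes on the array, each with 1 probe, of which 26395 were tested. The buds were the 8th from the base of mature canes of 5-year-old field-grown Kyoho vines, a cross of Vitis labrusca and Vitis vinifera, and were frozen 24 h after the start of treatment. The treatments were PHC (canes pruned just beyond the bud and the bud sprayed with 1% hydrogen cyanamide, a dormancy-breaking chemical), HC (1% hydrogen cyanamide spray) and P (pruning, with water on the bud), each set against control buds sprayed with water on unpruned canes. The sample labels give the HC canes as pruned while the methods describe the spray as applied without pruning, so whether the HC canes were cut cannot be told from the labels. Each treatment had 3 arrays, called biological replicates in the labels and made from 10 buds each, and nothing says which vines the buds came from, so p-values measure the spread between these pools.

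Cytokinins drive cell division and the release of axillary buds, and auxin moving down the stem from the shoot tip holds such buds back. Isopentenyltransferases attach the isoprenoid side chain to an adenine nucleotide, the first step of cytokinin synthesis. LONELY GUY (LOG) enzymes release the active base, cytokinin oxidases split off the side chain and end the activity, and receptors pass the signal through phosphotransfer proteins to response regulators. PIN proteins carry auxin out of cells, and their position in the membrane sets the direction in which auxin flows. In bulk buds, a change in the number of cells of a type and a change in RNA per cell cannot be told apart.

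On every array, RNA of treated buds carried the dye Cy5 and control RNA carried Cy3, and the dyes were exchanged on 0 of the 9 arrays, so any bias of a probe toward one dye is part of its values. The value used is the log2 ratio of treated over control within an array. A gene was called where its limma p, adjusted by Benjamini-Hochberg over all tested probes, was under 0.05 and its mean change was at least 2-fold. Depending on the array, 80.6 to 88.9% of probes stood well above background in Cy3, and 83.6 to 90.3% in Cy5. Shoot meristem markers were present, as 7 of the 9 loci searched were on the array and all 7 probes were well above background in the control channel of every array.

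All 3 genes were called higher after each of the treatments. IPT3 rose 7.76-fold after PHC, 3.51-fold after HC and 2.87-fold after P, and the PIN2 homolog 7.90-, 2.04- and 3.67-fold in the same order. CKX3, whose control signal was mostly not well above background, was at least 4.64-fold higher after PHC and at least 2.40-fold higher after P. These bounds are means over 3 arrays under the deposited background subtraction, and single arrays or other background corrections can lie below them. No fold is given after HC, where 1 of 3 control values was measured. PHC gave the highest mean log2 ratio for each gene. Of all tested probes, 13.5% were called higher and 11.7% lower after PHC, 5.16% higher and 4.75% lower after HC, and 2.75% higher and 0.572% lower after P. The study had listed these genes as changed by all 3 treatments in these same samples, so their shared direction is not independent evidence. Over all tested probes the median log2 change was between -0.07 and -0.03 in each of the treatments.

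IPT3, the gene for the entry step of cytokinin synthesis, had log2 ratios of 2.28, 3.33 and 3.26 on the PHC arrays, 1.10, 2.75 and 1.58 on the HC arrays, and 1.84, 1.63 and 1.09 on the P arrays. All 9 arrays showed at least a 2-fold rise, the PHC arrays lay above all P arrays, and HC replicate 2 fell within the range of the PHC arrays. Log2 changes averaged 2.96 ± 0.59 after PHC, 1.81 ± 0.85 after HC and 1.52 ± 0.38 after P (SD, n = 3 each), with limma adjusted p of 7.33e-05, 0.00269 and 0.0186. The signal behind these ratios was 437, 1228 and 1893 in Cy5 on the PHC arrays, against 89.9, 122 and 197 in the Cy3 control channel of the same arrays. After HC it was 112, 673 and 144 in Cy5 against 52.0, 99.9 and 48.2 in control Cy3. After P it was 222, 184 and 130 in Cy5 against 62.2, 59.7 and 60.9 in control Cy3. The control signal was dim but well above background on all 9 arrays, at 1.26 to 1.94 times the local background. The rise after P was not called when any single P array was left out (log2 changes of 1.36, 1.47 and 1.73, adjusted p of 0.103, 0.140 and 0.0599 without P replicates 1, 2 and 3). No further adenylate isopentenyltransferase could be set beside it, since the IPT1 and IPT5 homologs on the array were too dim to be tested.

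CKX3, which breaks cytokinins down, had log2 ratios of 2.50, 3.63 and 2.02 on the PHC arrays, 1.61, 1.88 and 1.00 on the HC arrays, and 1.83, 1.85 and 2.62 on the P arrays. The PHC arrays lay above all HC arrays, whereas PHC and P overlapped, with P replicate 3 above PHC replicates 1 and 3. Log2 changes averaged 2.72 ± 0.83 after PHC, 1.50 ± 0.45 after HC and 2.10 ± 0.45 after P (SD, n = 3 each), with limma adjusted p of 8.81e-05, 0.00527 and 0.00493. CKX3 was well above background in Cy5 on all 9 arrays but in the Cy3 control channel on HC replicate 2 alone, so its level in control buds was mostly not measured. It entered the test through Cy5, and these means and adjusted p rest on control signals that were mostly not well above background. Bounds used the lowest signal well above background in place of such control values, with signals brought to one average intensity distribution over arrays. They hold for the mean of 3 arrays under the deposited background subtraction. By these bounds, CKX3 was at least 4.64-fold higher after PHC and at least 2.40-fold higher after P. Its signals were 189, 413 and 137 in Cy5 on the PHC arrays, against 33.4, 33.4 and 33.9 in control Cy3. They were 49.1, 109 and 30.9 in Cy5 on the HC arrays, against 16.1, 29.6 and 15.4 in control Cy3. They were 22.6, 76.8 and 99.2 in Cy5 on the P arrays, against 6.33, 21.3 and 16.2 in control Cy3. Before scaling over arrays, the Cy5 signal was thus highest on PHC replicate 2 and lowest on P replicate 1. After scaling, the lowest was HC replicate 3 (log2 signal 5.13, against 5.69 on P replicate 1).

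The PIN2 homolog had log2 ratios of 2.80, 2.59 and 3.56 on the PHC arrays, 1.48, 1.23 and 0.38 on the HC arrays, and 1.95, 1.91 and 1.76 on the P arrays. The 3 treatments did not overlap: every PHC array lay above every P array, and every P array above every HC array. Log2 changes averaged 2.98 ± 0.51 after PHC, 1.03 ± 0.57 after HC and 1.87 ± 0.11 after P (SD, n = 3 each), with limma adjusted p of 1.55e-05, 0.00892 and 0.00314. The 3 P arrays were close together, and HC replicate 3 was the only array of the 9 that did not reach a 2-fold rise. The Cy5 signal was 1634, 2010 and 4730 on the PHC arrays, against 235, 334 and 400.4 in control Cy3. It was 323, 456 and 165 on the HC arrays, against 116, 195 and 126 in control Cy3, and 388, 602 and 483 on the P arrays, against 100.1, 160 and 143 in control Cy3. Both channels were well above background on all 9 arrays. The rise after HC was the smallest of those called here, and it was not called without HC replicate 1 (log2 change 0.80) or HC replicate 2 (0.93), or with the spread taken from the HC arrays alone (adjusted p = 0.0786).

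**Figure D1:**
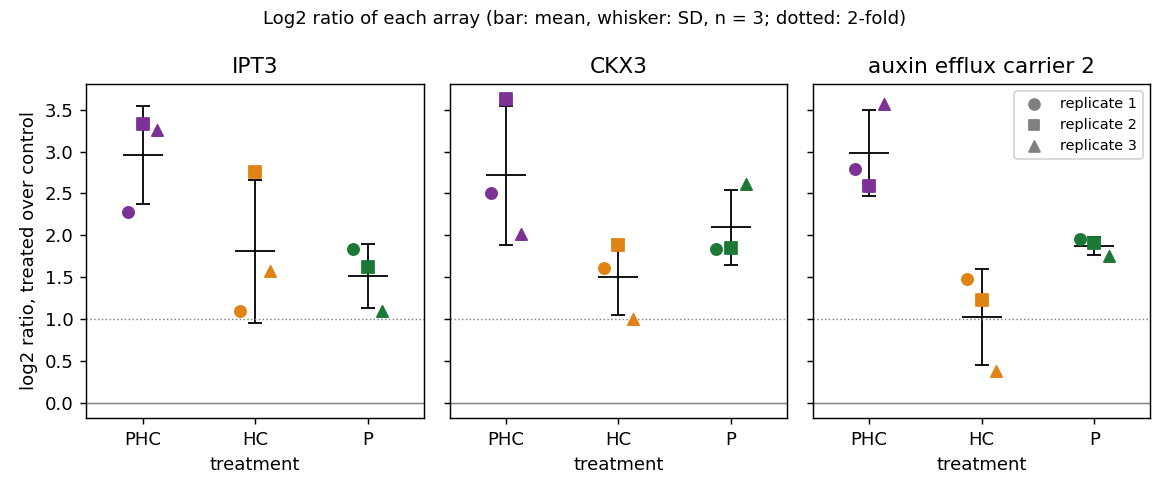
Log2 ratio of treated over control buds on each array (vertical axis) for the 3 genes after PHC, HC and P (horizontal axis), with the mean and SD of 3 arrays per treatment and a dotted line at a 2-fold rise. All points lie above 0, HC replicate 2 of IPT3 stands at 2.75 beside 1.10 and 1.58, and the 3 treatments of the auxin efflux carrier separate without overlap.

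By mean log2 ratio, the order of the treatments was not the same for the 3 genes. IPT3 was highest after PHC, then HC, then P, and CKX3 and the PIN2 homolog were highest after PHC, then P, then HC. Between neighbours in these orders, only the step of the PIN2 homolog between PHC and P passed the test. With replicate number added to the fit as a block, that step did not pass (limma adjusted p = 0.0582). HC minus P passed the test for none of the 3 genes, although every P array of the PIN2 homolog lay above every HC array. The sign of that difference turned for IPT3 without HC replicate 2 (-0.18) and for CKX3 under another background correction (0.24). The log2 signal of the control channel, after the same scaling over arrays, ranged over 1.01 for IPT3, 1.11 for CKX3 and 0.58 for the PIN2 homolog across the 9 arrays, less than the mean rise after PHC, while the range of CKX3 is mostly of values not well above background.

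**Figure D2:**
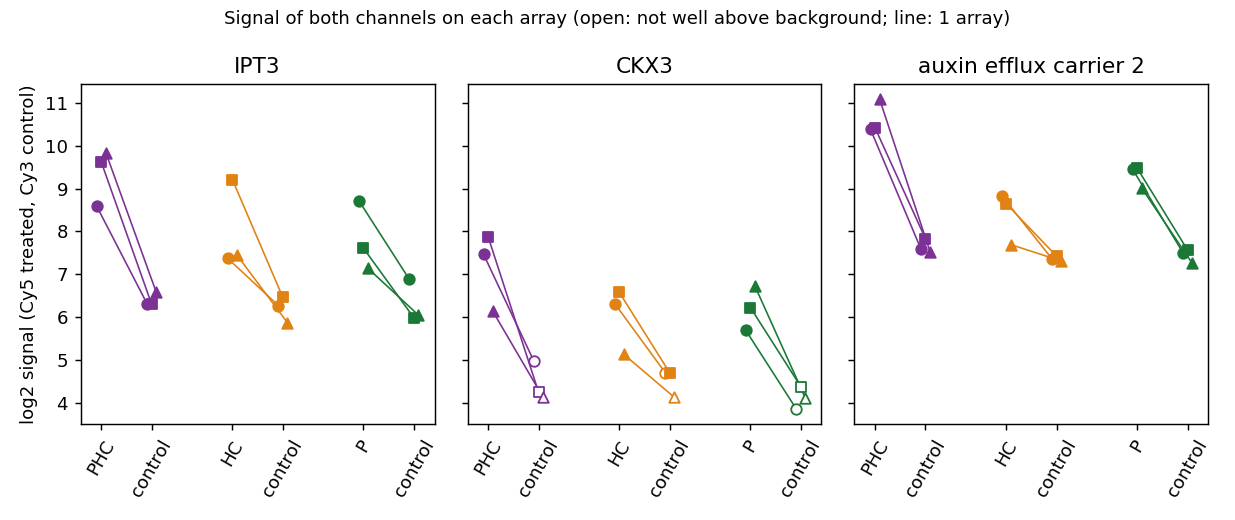
Log2 signal (vertical axis, scaled to one average intensity distribution) of the treated Cy5 channel and the control Cy3 channel on each array, joined by a line per array, with open symbols where the signal was not well above background. Control signals of IPT3 and the auxin efflux carrier are measured on all 9 arrays, and that of CKX3 on HC replicate 2 alone.

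Whether the combined treatment moved the genes further than either single one was tested on the differences between treatments in the same fit. The comparisons share water-treated controls. The PIN2 homolog was higher after PHC than after HC by 1.95 ± 0.33 on the log2 scale (SE, n = 3 arrays each, limma adjusted p = 0.00364), where 8.55% of tested probes were called higher and 5.33% lower. It was also higher after PHC than after P, by 1.11 ± 0.33 (SE, adjusted p = 0.0416), where 4.85% of tested probes were called higher and 4.82% lower. That second call is close to the threshold: the adjusted p was 0.0600 with no filter on dim probes and 0.0582 with replicate number as a block in the fit. Leaving out PHC replicate 1 or 3 or any P array gave differences of 0.82 to 1.20 that were not called.

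For IPT3, PHC exceeded P by 1.44 ± 0.45 (SE, limma adjusted p = 0.0504) and HC by 1.15 ± 0.45 (SE, adjusted p = 0.0877), and neither passed the test. The 95% intervals of these differences were 0.42 to 2.45 and 0.13 to 2.16. The first passed with probes filtered on both channels (adjusted p = 0.0440) and with replicate number as a block in the fit (limma adjusted p = 0.0320). With that block, the call of PHC over P thus lay with IPT3 and not with the PIN2 homolog. The second passed without HC replicate 2 (difference 1.62, adjusted p = 0.0148), the HC array with the highest IPT3 ratio. For CKX3, PHC exceeded HC by 1.22 ± 0.43 (SE, adjusted p = 0.0622, 95% interval 0.25 to 2.18) and P by 0.62 ± 0.43 (SE, adjusted p = 0.358, interval -0.35 to 1.58). The first of these passed without PHC replicate 3 (difference 1.57, adjusted p = 0.0448). These CKX3 differences, and those given below, rest on control signals that were mostly not well above background.

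Between the single treatments, HC minus P was 0.29 for IPT3 (95% interval -0.73 to 1.31), -0.60 for CKX3 (-1.57 to 0.37) and -0.85 for the PIN2 homolog (-1.59 to -0.10), with limma adjusted p of 0.712, 0.422 and 0.143. No gene of the 3 was called there, where 3.35% of tested probes were called higher after HC and 3.13% lower. The intervals allow differences past 2-fold for each gene, so the genes are not shown to respond alike to cutting and to the chemical.

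The response to PHC was also set against the sum of the log2 changes after HC and after P. PHC departed from that sum by -0.37 for IPT3 (95% interval -1.62 to 0.87), -0.88 for CKX3 (-2.07 to 0.30) and 0.08 for the PIN2 homolog (-0.83 to 0.99), with limma adjusted p of 0.739, 0.362 and 0.936. None was called, and 1.54% of tested probes were called above the sum and 1.52% below it. The sign of the departure was not stable for IPT3, which was 0.10 without HC replicate 2 and 0.18 under normexp background correction with an added offset of 50 and loess, nor for CKX3, at 0.012 under that setting and 0.45 with median centring in place of loess, nor for the PIN2 homolog, which was -0.24 without HC replicate 3 and -0.21 without PHC replicate 3.

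**Figure D3:**
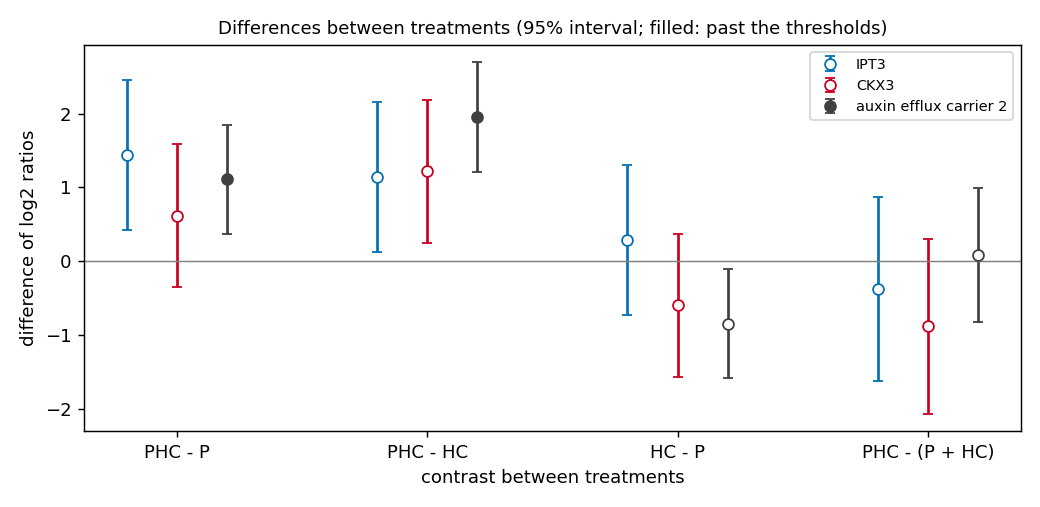
Differences of log2 ratios between treatments (vertical axis) with 95% intervals from the fit over 9 arrays, for the 3 genes in each contrast (horizontal axis), with filled points past both thresholds. Without a replicate block, the auxin efflux carrier alone passed, at 1.11 for PHC minus P and 1.95 for PHC minus HC, and the intervals of all 3 departures from the sum span 0. Values of CKX3 rest on control signals mostly not well above background.

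The size of the rises depended on how background was handled, most of all for CKX3. Under normexp background correction with an added offset of 50 and loess normalization, the mean log2 changes after PHC were 1.60 for IPT3, 0.83 for CKX3 and 2.16 for the PIN2 homolog. After HC they were 0.79, 0.34 and 0.54 in that order of genes, and after P 0.64, 0.48 and 1.19. Of these, IPT3 after PHC and the PIN2 homolog after PHC and after P were still called. With the same background correction and median centring, CKX3 was at 0.47 after PHC, 0.13 after HC and -0.11 after P, none of them called. The offset is added to raw signals after background correction. Before that correction, the largest raw control signal was 39.2 for CKX3, 50.9 for IPT3 and 80.8 for the PIN2 homolog. These include a local background of 26.2 or more. The offset is thus not small beside the control signal of any of the 3 genes. With an offset of 1, chosen after the values at 50 had been seen, CKX3 was at 1.96 after PHC, 0.94 after HC and 1.29 after P. All calls of the 3 genes held except CKX3 after HC and the PIN2 homolog after HC (0.89). Both of these kept an adjusted p under the threshold but not a 2-fold change.

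**Figure D4:**
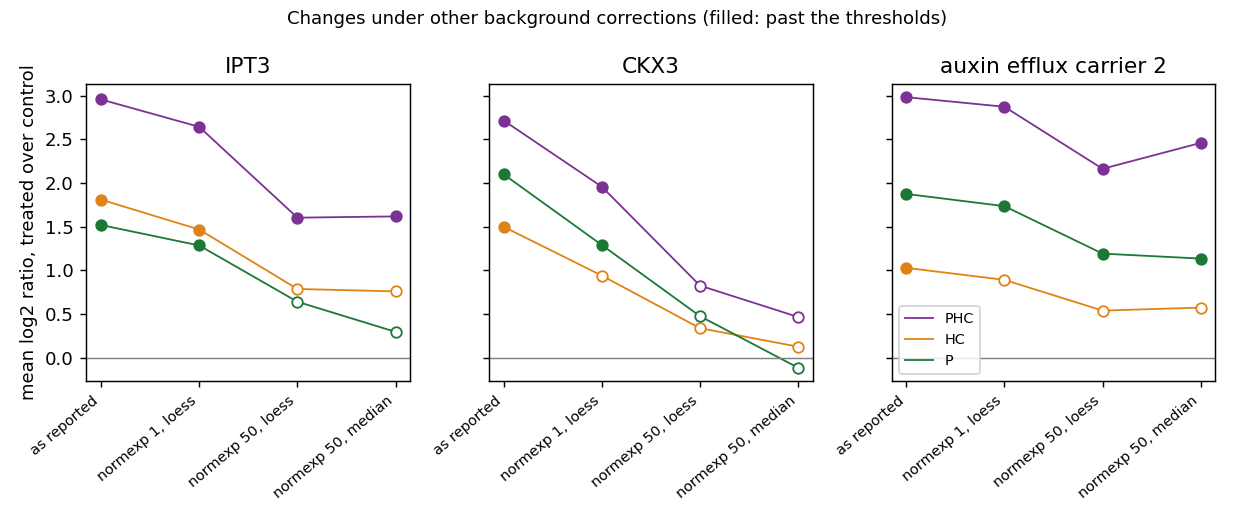
Mean log2 ratio of treated over control buds (vertical axis) for the 3 genes and 3 treatments under the reported values and under normexp background correction with an offset of 1 or 50 (horizontal axis), with filled points past both thresholds. CKX3 drops the most, to 0.47, 0.13 and -0.11 after PHC, HC and P under an offset of 50 with median centring, and the auxin efflux carrier after PHC stays at 2.16 or above.

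By the root-mean-square difference of the log2 ratios over the 9 arrays, the named gene most like IPT3 was a cytokinin-activating LOG enzyme, LOGL1 (GSVIVT00024794001), at 0.454 among 4977 candidates with both channels measured above background on 6 arrays or more. LOGL1 rose by 2.68 after PHC, 1.82 after HC and 1.31 after P on the log2 scale. The next nearest to IPT3 were a pectinesterase 12 (GSVIVT00016358001, 0.477), which modifies wall pectin, and a BRU1-like gene (GSVIVT00007248001, 0.483) named as brassinosteroid-regulated. The pectinesterase was also the nearest to CKX3, at 0.526 among 4978 candidates, before a proline-rich protein (GSVIVT00016962001, 0.572) and a neural Wiskott-Aldrich syndrome protein-like gene (GSVIVT00022151001, 0.573). Nearest to the PIN2 homolog were a CHROMOSOME TRANSMISSION FIDELITY 7-like gene (GSVIVT00029592001, 0.349), a clathrin adaptor complex small chain (GSVIVT00034130001, 0.405), of the coats of transport vesicles, and a proline-rich DC2.15-like gene (GSVIVT00031568001, 0.414). The 3 genes differed from each other by 0.756 to 0.775 on this measure, more than from any of these neighbours. Except for the clathrin adaptor, the neighbours were named by the study's tables of genes changed in these same samples. Genes without a name could not be neighbours, so the match of LOGL1 to IPT3 is not independent evidence of a link. The measure is a description over arrays that share control RNA, and it says nothing of function.

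Other genes of cytokinin supply were listed by the Arabidopsis locus that the array annotation gives as homolog. The counts in this and the following lists stand beside the shares over all tested probes. Those were 13.5% called higher and 11.7% lower after PHC, 5.16% and 4.75% after HC, and 2.75% and 0.572% after P. The lists are small, and no list was tested as a set. Of 5 LOG homologs, 2 rose and 3 fell after PHC (median log2 change -1.02), and none was called after HC or P. The LOG1 homolog (GSVIVT00024556001) rose by 1.78 ± 0.35 after PHC and the LOG8 homolog (GSVIVT00032184001) by 1.09 ± 0.17, whereas the LOG5 homolog (GSVIVT00036224001) fell by 1.37 on the log2 scale (SD 0.34, n = 3). With the offset of 50 and median centring none of the 3 falls was called (LOG3 homolog GSVIVT00023201001 at -0.43, LOG5 at -0.66, LOG7 homolog GSVIVT00021524001 at -0.37), and neither the LOG3 homolog without PHC replicate 1 (-0.92) nor the LOG7 homolog without PHC replicate 1 or 3, or with loess (-0.82), was called. The tRNA isopentenyltransferase IPT2 homolog (GSVIVT00011128001), of the minor route to cytokinins, fell after PHC with a mean of -1.04 ± 0.03, the opposite direction to IPT3 at 2.96. A zeatin O-glucosyltransferase-like gene (GSVIVT00025630001), of a family that stores zeatin as a glucoside, fell after every treatment, with log2 changes of -2.24 ± 0.11 after PHC, -1.89 ± 0.45 after HC and -1.23 ± 0.09 after P (SD, n = 3 each). Its name and that of LOGL1 come from the study's tables of genes changed in these same samples, so their changes are not independent evidence. Under the offset of 50 with loess, its falls after HC and P, the LOGL1 rise after P and the fall of the IPT2 homolog were no longer called.

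The cytokinin oxidase family did not move as one. Of 4 CKX homologs beside CKX3 itself, 1 rose after PHC, 1 rose and 2 fell after HC, and none was called after P. The CKX1 homolog (GSVIVT00025661001) had log2 ratios of -0.08, 2.15 and 1.71 on the PHC arrays and 0.52, 2.03 and 1.40 on the HC arrays, with called means of 1.26 ± 1.18 and 1.32 ± 0.75, of which the first was not called without PHC replicate 2 (0.82) or 3 (1.04) and the second without HC replicate 2 (0.96) or 3 (1.28), P replicate 2 or 3, or PHC replicate 3. Neither was called without a filter on dim probes or on the arrays of the treatment alone. The CKX5 homolog (GSVIVT00014541001) had ratios of 0.59, 1.22 and 1.15 on the PHC arrays, -1.29, -0.08 and -2.10 on the HC arrays, and 0.65, 1.20 and 1.03 on the P arrays. It thus lay above 0 on every PHC and P array and below 0 on every HC array, and its fall after HC (-1.15 ± 1.02) was not called without HC replicate 1 (-1.09) or 3 (-0.68), nor under any normexp setting (-0.99 to -0.54), nor on the HC arrays alone. PHC exceeded HC by 2.14 for this homolog, and HC minus P was -2.11, both called, the second not without P replicate 2, P replicate 3 or HC replicate 1 (-2.08 to -1.99, adjusted p up to 0.0840). A gene that the study's tables of changed genes name cytokinin dehydrogenase 3 (GSVIVT00013006001) was at 3.38 ± 1.42 after PHC and 2.18 ± 0.31 after P, both called, and at 1.16 ± 0.93 after HC, not called. Its control signal was not well above background on any array. This bounds its mean rise over 3 arrays at 4.89-fold or more after PHC and 2.30-fold or more after P. Its rise after P was not called when any P array was left out. Under the offset of 50 its change was 0.82 or less after PHC and -0.16 after P with median centring, none called.

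The array also holds a probe annotated as homologous to Arabidopsis CKX3 itself (GSVIVT00033803001). Its log2 change was 0.40 ± 0.28 after PHC and 0.06 ± 0.22 after P (SD, n = 3 each), and 0.76 after HC, where 1 outlier value was left out, and none was called. CKX3 as named by the study, GSVIVT00033806001, was thus at a log2 ratio of 2.72 after PHC where this neighbour by identifier was at 0.40. Whether the probes of such near copies share targets was not tested.

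Among signalling genes, all 4 type-A response regulator homologs tested, which cytokinin induces and which dampen its signal, rose after PHC (median log2 change 1.69), 1 rose after HC (median 0.72) and 3 rose after P (median 1.13). The ARR5 homolog (GSVIVT00016174001) was at 2.26 ± 0.18 after PHC, 0.82 ± 0.40 after HC and 1.57 ± 0.38 after P, of which the value after HC was not called. The ARR9 homolog (GSVIVT00000667001) rose by nearly the same amount after each treatment, 1.10 ± 0.21 after PHC, 1.07 ± 0.34 after HC and 1.10 ± 0.27 after P. Of 3 receptor homologs, that of AHK3 (GSVIVT00002792001) fell after PHC (-1.45 ± 0.27), and none of the 3 type-B response regulator homologs was called. Cytokinin response factor genes named in the study's tables also rose: CRF2 (GSVIVT00002468001) by 3.00 ± 0.33 after PHC and 1.75 ± 0.72 after P, with 0.45 ± 0.80 after HC not called, and a CRF4-like gene (GSVIVT00006483001) by 2.73 ± 0.19 after PHC and 1.23 ± 0.52 after HC, with 0.81 ± 0.18 after P not called. Those tables list genes changed in these same samples, so these rises are not independent evidence. Under the offset of 50 with loess, the homologs of ARR4 and ARR17 were not called after PHC (0.88 and 0.71), nor that of ARR4 after P (0.69), nor the CRF4-like gene after HC, and with median centring the AHK3 homolog was at -0.75. Without 1 array, the ARR9 homolog was not called after PHC (without PHC replicate 1), HC (without HC replicate 3) or P (without P replicate 1 or 2), nor CRF2 after P (without P replicate 1 or 2).

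Of the 4 PIN homologs examined beside that of PIN2, 2 rose after PHC (median log2 change 0.89) and none was called after HC (median 0.056) or P (median 0.21). They were the homologs of PIN6 (GSVIVT00014302001), at 1.81 ± 0.29 after PHC, 0.25 ± 0.42 after HC and 0.77 ± 0.20 after P, and of PIN8 (GSVIVT00020886001), at 1.83 ± 0.18, 0.50 ± 0.15 and 0.29 ± 0.64 in the same order, both known in Arabidopsis as carriers of the endoplasmic reticulum. PHC exceeded both single treatments for the PIN6 homolog (1.56 over HC and 1.04 over P) and the PIN8 homolog (1.33 over HC and 1.54 over P), all called. The PIN6 difference over P was not called without P replicate 1 or 3 or PHC replicate 1 or 3 (0.92 to 1.11, adjusted p up to 0.0802), nor under the offset of 50 with loess (0.83), where the PIN8 differences were not called either (0.75 over HC and 0.78 over P). Of 3 influx carrier homologs, LAX2 (GSVIVT00036093001) rose after PHC by 1.21 ± 0.17, and of 3 ABCB homologs, ABCB4 (GSVIVT00028243001) rose after HC by 1.41 ± 0.36. Under the offset of 50 with loess, the PIN8 homolog was at 0.95 after PHC and no longer called.

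**Figure D5:**
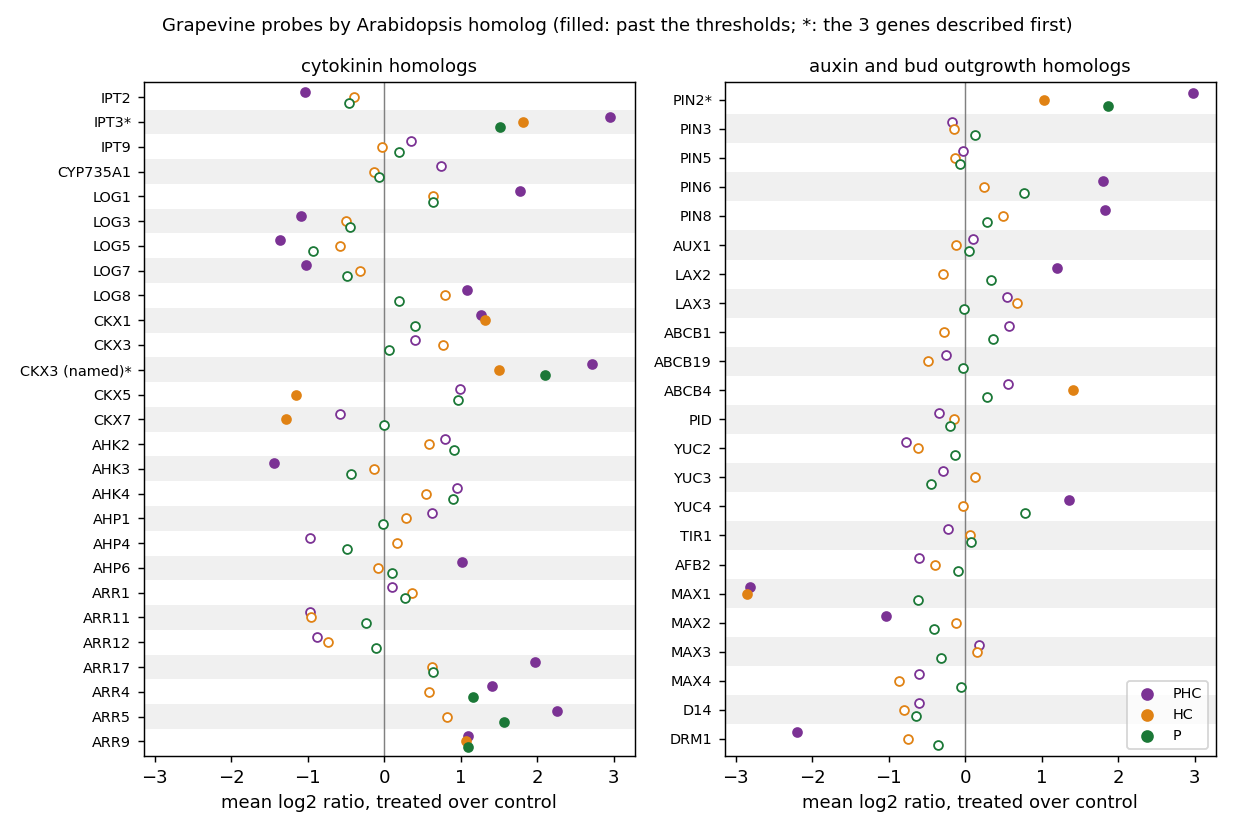
Mean log2 ratio of treated over control buds (horizontal axis) for tested probes by their Arabidopsis homolog (vertical axis), after PHC, HC and P, with filled points past both thresholds and asterisks on IPT3, CKX3 as named by the study and the PIN2 homolog. These 3 are filled for all treatments, at 2.72 to 2.98 after PHC. The rest of the CKX and PIN homologs shown lie at 1.83 or below. The gene named cytokinin dehydrogenase 3 by the study, at 3.38 after PHC with control signals not well above background, is not shown.

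Of 16 tested probes that the annotation describes as auxin-responsive or auxin-induced, 7 rose after PHC (median log2 change 0.65), 3 after HC (median 0.24) and 2 after P (median 0.37), and none fell. The one with the largest change was an auxin-induced X10A-like gene (GSVIVT00036017001), of the small auxin-up RNA family. Its log2 ratios were 3.96, 2.90 and 4.10 on the PHC arrays and 1.95, 2.03 and 3.08 on the HC arrays. On the P arrays they were 1.18, 2.77 and 2.07. GSVIVT00016384001, counted after PHC and HC, had control signals well above background on 0 of 3 arrays in each. This bounds its mean rise at 2.83-fold or more after PHC and 2.32-fold or more after HC. The X10A-like gene was well above background in control Cy3 on all 3 PHC arrays, but on 1 of 3 HC and 1 of 3 P arrays. Under the offset of 50 with loess it was at 0.58 after HC and 0.72 after P, neither called, nor were the other HC calls (GSVIVT00016384001 at 0.44 and GSVIVT00026386001 at 0.90) or 2 of the 7 PHC calls (GSVIVT00014456001 at 0.93 and GSVIVT00016384001 at 0.57). Without 1 array, the X10A-like gene was not called after P (without P replicate 2 or 3), nor GSVIVT00010822001 after P (without P replicate 1 or 2), nor after HC GSVIVT00016384001 (without HC replicate 1) or GSVIVT00026386001 (without HC replicate 3). Of 6 homologs of strigolactone and bud outgrowth genes, 3 fell after PHC (median -0.82), 1 after HC (median -0.77) and none was called after P (median -0.38). The homolog of DRM1 (GSVIVT00003066001), a marker of dormant buds, was at -2.20 ± 0.30 after PHC, with -0.74 ± 0.19 after HC and -0.35 ± 0.22 after P not called. That of MAX1 (GSVIVT00032191001), a strigolactone synthesis enzyme, fell after PHC (-2.81 ± 0.47) and after HC (-2.85 ± 0.56) and was at -0.62 ± 0.05 after P, not called.

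Markers of tissue were read beside these rises. Of 4 vascular marker probes, 2 rose after PHC and 1 after P, and the log2 ratio of their summed signal was -0.38 to 0.23 on the PHC arrays, 0.15 to 0.80 on the HC arrays and -0.10 to 0.34 on the P arrays. A sum is set mostly by the brightest probes, and the median log2 change over the vascular probes was 0.88, 0.093 and 0.18 after PHC, HC and P. Of 7 shoot meristem probes, 1 rose after PHC and 1 fell after HC. The log2 ratio of their summed signal was 0.60 to 0.76 on the PHC arrays and -0.32 to 0.0039 on the HC arrays. On the P arrays it was 0.36 to 0.46. Their median log2 change was smaller after PHC and P, at 0.23 and 0.12, and -0.26 after HC. The means of CKX3 and the PIN2 homolog fell in the order PHC, P, HC. So did the meristem sum and the medians of the meristem and vascular probes, but not the vascular sum. The homologs of WUS (-0.72, -0.54 and -0.47 after PHC, HC and P, not called) and AP1 were below 0 after each treatment. None of 3 green leaf probes was called. No marker searched was at background in the control channel of all arrays, and the part of tissue makeup in the 3 rises was not tested.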

How the data were processed

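Each array was scanned and extracted by the authors with Agilent Feature Extraction 10.5, per the labels. The deposited intensity columns hold linear Cy5 and Cy3 signals, raw and after background subtraction and rank-consistent LOWESS dye normalization. The deposited log2 values are the authors' log2 ratios of Cy5 over Cy3 from those signals, and the deposited ratio column holds the same on the linear scale. The deposited p-value column, of the authors' software, was not used.

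Outlier values were left out (81 probe values), and 0 spots were saturated. A probe was tested if, for 1 treatment or more, either channel was well above background on each of its 3 arrays (26395 of 30128). Ratios of the 9 arrays entered a single limma 3.58.1 fit with 1 mean per treatment and no replicate block, giving 6 residual and 2.74 prior degrees of freedom, for 7 comparisons. R 4.3.3 was used with jsonlite 2.0.0 and data.table (1.17.8). The fit was run on simulated data with independent errors between arrays, so that check does not cover variation shared by same-numbered arrays. Bounds used Aquantile scaling. Plots were made in Python 3.11.15 with matplotlib 3.10.9. Precision is limited by the number of arrays, and no slide or scan date is given in the sources used here.

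The members and lists were chosen with earlier results of these data known. Genes named are the 3 members, the 3 named probes nearest to each, and from each list up to 4 called probes and those that the study's tables name; the second CKX3 homolog was added after its values were seen. Of 9 lists of description words, 5 matched any probe, so the Arabidopsis loci of pathway genes were searched as well, after the annotation had been seen, and 66 of 99 loci were found. MAX1, ARR5 and similar names stand for homologs only. Names came from the study's tables (439 probes) or from homolog descriptions (6981 probes). The study's tables list genes changed in these same samples, so changes of genes that they name are not independent evidence. Probe sequences were not used here, and 1 homolog is not reported here. Alternatives changed the background correction, the source table, the filter, the spread, the control channel and the replicate block, and each array was left out in turn.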

Additional observations from a re-analysis of the deposited data

How the results depend on the processing

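The series table, Cy5 signals alone and leaving out PHC replicate 2 changed no call or direction of the 3 genes in the comparisons they could be run for. With normexp (offset 50) and loess, IPT3 was at 0.79 after HC and 0.64 after P, CKX3 at 0.83, 0.34 and 0.48 after PHC, HC and P, the PIN2 homolog at 0.54 after HC and 0.97 for PHC minus P, none called, and the departures from the sum turned to 0.18 for IPT3 and 0.012 for CKX3. With normexp (offset 50) and median centring, IPT3 was at 0.76 after HC and 0.30 after P, CKX3 at 0.47, 0.13 and -0.11 after PHC, HC and P, and the PIN2 homolog at 0.57 after HC, none called, while HC minus P turned to 0.24 for CKX3 and the departures to 0.56 for IPT3 and 0.45 for CKX3. With an offset of 1, chosen after seeing the data, CKX3 was at 0.94 and the PIN2 homolog at 0.89 after HC. On the HC arrays alone the PIN2 homolog kept its log2 change of 1.03 but not its call. PHC minus P, at 1.44, was called for IPT3 with the filter on both channels, and at 1.11 was not called for the PIN2 homolog without a filter. With the replicate block, PHC minus P was 1.44 and called for IPT3 (adjusted p = 0.0320) and 1.11 and not called for the PIN2 homolog (0.0582), and no other call of the 3 genes changed. The filter on both channels left CKX3 out. The causes were not tested.

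Probes called higher numbered 458 after P with normexp (offset 50) and loess, against 725. With median centring they numbered 5486 for PHC, 2161 for PHC minus P, 3470 for PHC minus HC and 99 for the departure, which was 701 with the replicate block, against 3552, 1281, 2256 and 406. Median centring moved the median of all tested probes after PHC to 0.16, against -0.07, and the share of calls that were higher to 88.0% after PHC, 82.0% after HC and 95.7% after P, against 53.5, 52.1 and 82.8%, with 84.6% for PHC minus P and 89.1% for PHC minus HC against 50.2 and 61.6%, and 61.5% for the departure against 50.3%. With normexp (offset 50) and loess the share after HC was 69.2%, that for HC minus P 61.7% against 51.6%, and that for the departure 39.1%. Among 128 calls of list genes and neighbours, 83 held with normexp (offset 50) and loess and 86 with median centring, under which the cytokinin dehydrogenase 3 after P turned to -0.16 and the AHP6 homolog after PHC to -0.23.

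Leaving out each array in turn gave, for IPT3, 2.77 to 3.29 after PHC, 1.34 to 2.16 after HC, 1.36 to 1.73 after P, 1.22 to 1.77 for PHC minus P, 0.79 to 1.62 for PHC minus HC, -0.18 to 0.64 for HC minus P and -0.73 to 0.10 for the departure. PHC minus P was called for IPT3 without HC replicate 1, HC replicate 2 or PHC replicate 1, and HC minus P was -0.18 without HC replicate 2. For CKX3 the ranges were 2.26 to 3.07, 1.31 to 1.75 and 1.84 to 2.23 after PHC, HC and P, 0.16 to 0.97 for PHC minus P, 0.76 to 1.57 for PHC minus HC, -0.79 to -0.34 for HC minus P and -1.34 to -0.53 for the departure. For the PIN2 homolog they were 2.69 to 3.18, 0.80 to 1.35 and 1.83 to 1.93 after PHC, HC and P, 0.82 to 1.30 for PHC minus P, 1.63 to 2.18 for PHC minus HC, -1.07 to -0.52 for HC minus P and -0.24 to 0.30 for the departure. Probes called higher ranged over 3248 to 3729 after PHC, 1300 to 1677 after HC, 208 (without P replicate 2) to 795 after P, 763 (without PHC replicate 3) to 1412 for PHC minus P, 1620 to 2736 for PHC minus HC, 636 to 1090 for HC minus P and 0 to 920 for the departure, where limma had 2135 to 4082 above the sum at an unadjusted p under 0.05.

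Same-numbered arrays had correlated deviations in 8 of 9 pairs (r over 0.1, from 0.00309 to 0.628). By the same measure, 9 of 9 arrays deviated most like an array of their own number. Arrays of a number thus shared variation that the main fit, with no replicate block, did not model. The paper describes randomized complete blocks of canes, but the labels do not tie a replicate number to a block. Which gene was called for PHC minus P depends on this choice: the PIN2 homolog without the block, IPT3 with it. Signal over background limits these values: the control channel of CKX3 was measured on 1 of 9 arrays, and IPT3 stood at under 2 times background there.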
